A study of Mus musculus with 9 samples.

Results

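The JAK, STAT and SOCS genes described here are the 10 genes *Jak1*, *Jak2*, *Jak3*, *Tyk2*, *Stat3*, *Stat5a*, *Stat5b*, *Socs1*, *Socs2* and *Socs3*, found by symbol among the 56748 genes of the count table. All 10 were found, and all 10 passed the filter on low counts in every comparison. RNA-seq was performed on bulk hematopoietic stem cells (HSCs) sorted from the bone marrow of female mice on a C57BL/6 background. yHSCs came from young mice of 6 to 10 weeks, and paHSCs from pre-aged mice of 14 to 16 months. All were SLAM-HSCs, that is lineage-negative, Sca1+ and c-Kit+ cells that were CD150+ and CD48-, and paHSCs were divided by surface P-selectin, the product of *Selp*, into Selp high and Selp low fractions. Each of the 3 groups had 3 libraries (n = 3). No group carried a transgene or a treatment, and the study calls the libraries biological replicates, but neither the labels nor the methods say how many mice gave each one.

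Janus kinases (JAKs) are bound to the inner part of cytokine receptors. When a cytokine brings receptor chains together, the kinases phosphorylate the receptor and then STAT proteins, which pair, enter the nucleus and switch on target genes. Among those targets are the SOCS genes, whose products bind JAKs or receptors and damp the signal. In HSCs the pathway is best known for carrying the thrombopoietin signal, which acts through JAK2 and STAT5 and is needed to keep HSCs in the marrow. JAK3 works with the common gamma chain of interleukin receptors and is best known from lymphocytes.

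Libraries held 24866975 to 35375310 counts. A count of 0 allows up to 3 counts, or 0.0848 to 0.121 CPM (counts scaled to a common library total), for counting error only, and none of the 10 genes had fewer than 123 counts in a library. The sort held for its own gene: *Selp* was at 264 to 651 CPM in the Selp high libraries, 29.3 to 109 CPM in the Selp low libraries and 20.5 to 29.99 CPM in yHSCs. All 10 HSC markers were detected in every library. Their summed level was 2172 to 3118 CPM in Selp high paHSCs, 819 to 1505 CPM in Selp low paHSCs, and 1036, 1992 and 2293 CPM in yHSC replicates 1, 2 and 3. The 10 most counted genes took the largest shares of all counts in Selp low replicates 2 and 3 and yHSC replicate 1, at 44.8%, 20.9% and 12.5%. Summed plasma cell markers reached 100610 CPM in Selp low replicate 2, and summed neutrophil markers 213180 CPM in Selp low replicate 3 and 64968 CPM in yHSC replicate 1. Other libraries were not free of such transcripts. Neutrophil markers summed to 42621 CPM in Selp high replicate 3 and plasma cell markers to 3615 CPM in Selp high replicate 2. B cell markers summed to 5676 CPM in Selp low replicate 1. In bulk samples, fewer cells of a type and less RNA per cell cannot be told apart.

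*Stat5a* and *Stat5b* are neighbouring genes that arose by duplication, and their sequences are shown because reads from the one could be counted on the other. On mouse chromosome 11 (GRCm39, the build of the count table) *Stat5b* lies on the minus strand from 100671557 to 100741550, *Stat5a* on the plus strand from 100750177 to 100775995, and *Stat3* on the minus strand from 100775924 to 100830366. *Stat5a* and *Stat3* overlap at their ends by 72 bases. The longest coding sequences of *Stat5a* (2394 bases) and *Stat5b* (2361 bases), from GENCODE transcripts on GRCm38, were identical at 84.6% of 2461 aligned positions and shared an unbroken run of 324 bases. The stretch from base 835 to base 954 of both coding sequences covers the end of that run and the 60 bases after it. The capital marks the 1 base of 120 that differs:
Stat5a: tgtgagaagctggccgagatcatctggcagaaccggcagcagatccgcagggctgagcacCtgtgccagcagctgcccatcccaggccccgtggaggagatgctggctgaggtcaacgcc
Stat5b: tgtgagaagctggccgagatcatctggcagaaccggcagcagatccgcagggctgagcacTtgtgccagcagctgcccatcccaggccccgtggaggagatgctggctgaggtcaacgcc
Over the whole transcripts, 6.99% of the windows of 100 bases in *Stat5a* and 5.18% of those in *Stat5b* occurred in the other gene. With windows of 30 bases these shares were 22% and 16.4%. How far counts were exchanged between *Stat5a* and *Stat5b* was not tested. *Stat3* shared no window of 30 bases with either.

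STAT dimers bind a palindrome, TTCNNNGAA, which reads the same on both strands. It was looked for in RefSeq promoter windows of 300 bases (GRCm38.p6), from 250 bases before the start site to 50 bases from it, in which 9 members matched, all but *Socs2*. The motif occurred in 1 of these 9 genes and in 9.55% of all 27025 genes with such a window. The match is shown with 10 bases on each side and the motif in capitals, beside the matches in *Cish*, a SOCS family gene known as a STAT5 target. In *Socs3* it lay at chr11:117969502-117969530 on the minus strand, from position -154 to -146 relative to the start site. In *Cish*, at chr9:107296649-107296677 and chr9:107296660-107296688 on the plus strand, the first match began at the start site and the second 11 bases after it.
Socs3: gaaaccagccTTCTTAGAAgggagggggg
Cish first match: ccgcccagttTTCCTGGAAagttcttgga
Cish second match: tcctggaaagTTCTTGGAAatctgtcaaa
*Pim1*, another STAT target gene searched for comparison, had 2 windows and no match. A match describes these letters only and is no evidence of binding in these cells.

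Levels of different genes were compared as FPKM, calculated from the counts with the gene length in the authors' file. *Jak1*, which serves most cytokine receptor families, had the highest level of the 10 genes in all 9 libraries. Its mean was 56.0 ± 5.11 FPKM (SD, n = 3) in Selp high paHSCs, 60.2 ± 17.4 FPKM in yHSCs and 40.4 ± 6.92 FPKM in Selp low paHSCs, at or above the 93.0th percentile of protein-coding genes in each group. In Selp high paHSCs *Jak3* came next (31.4 ± 6.59 FPKM), followed by *Stat3* (23.8 ± 2.00 FPKM), whose libraries overlapped those of *Jak3*. *Stat5a*, *Stat5b*, *Socs3* and *Jak2* then lay between 14.7 and 16.2 FPKM in the mean, with overlapping libraries. *Tyk2* was at 6.97 ± 1.21 FPKM, and *Socs1* and *Socs2* were lowest, at 4.29 ± 1.48 and 3.76 ± 3.14 FPKM. In Selp low paHSCs *Jak3*, at 12.0 ± 0.621 FPKM, ranked sixth rather than second, with libraries that overlapped those of *Jak2* (12.9 ± 1.38 FPKM). In yHSCs *Jak1* and *Jak3* were again first and second, but libraries of neighbouring genes overlapped throughout, and replicate 1 was low for most of them. Among the 9 libraries *Socs3* varied most, 10.1-fold between its lowest and highest library, and *Stat3* least, 2.03-fold.

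**Figure D1:**
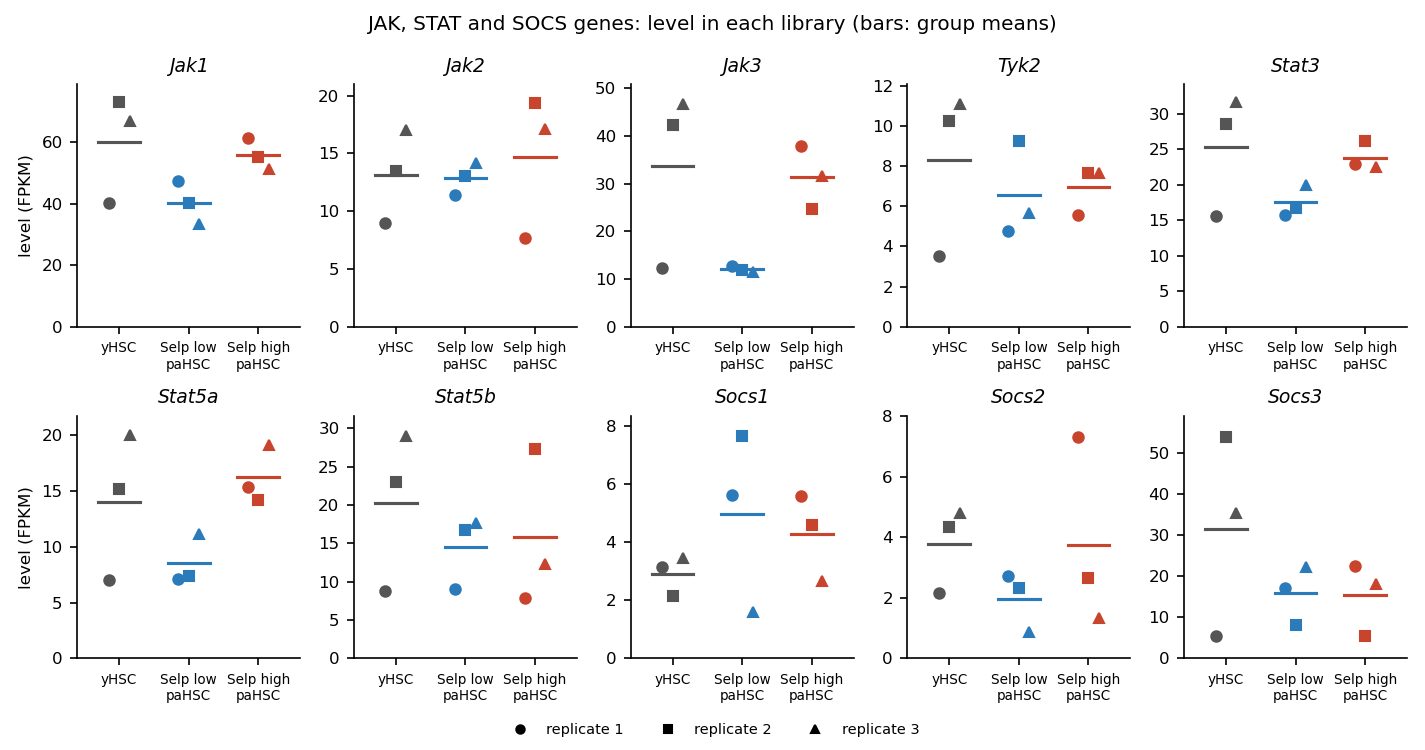
Level in FPKM (vertical axes, from 0) of the 10 JAK, STAT and SOCS genes in each library, by group, with the 3 replicates of each group as separate symbols and the group mean as a bar. *Jak3* lies at 11.4 to 12.7 FPKM in the Selp low libraries and at 24.7 to 37.9 FPKM in the Selp high libraries, and yHSC replicate 1 (circle) is the lowest yHSC library for 9 of the 10 genes.

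The central comparison asked which genes differ between the fractions of pre-aged HSCs that carry much or little P-selectin. *Jak3* and *Stat5a* were the members that stood furthest apart, both higher in Selp high paHSCs, and *Jak1* and *Stat3* were also higher in every Selp high library than in any Selp low library. None passed the adjusted test of edgeR, in which 0 of 20370 genes (0%) were called under the limits set by the study, an adjusted p no higher than 0.05 and a log2 fold change of at least 1 in size. DESeq2, the tool of the study, called 589 of 25807 genes (2.28%) at the same thresholds and 1 of the 10 members, *Jak3*. At an unadjusted p under 0.05 by edgeR, 2 members stood out, *Jak3* and *Stat5a*, against 12.5% of all genes in either direction. The 4 members without overlap between the groups, all higher in Selp high paHSCs, compare with 10.3% of all genes that were higher in this way and 10.7% that were lower. The median log2 fold change of the 10 genes was 0.31, beside -0.11 over all genes tested, and 8 of the 10 were positive.

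*Jak3* (chromosome 8, GRCm39, from 72128940 to 72143219, plus strand) was at 203, 132 and 169 CPM in Selp high replicates 1, 2 and 3 and at 67.8, 64.2 and 61.2 CPM in Selp low replicates 1, 2 and 3. The lowest Selp high library thus lay well above the highest Selp low library, and the Selp low libraries were close to each other. The fitted log2 fold change was 1.38 (SE 0.25, adjusted p = 0.338 in edgeR's quasi-likelihood fit), a fold of 2.59, and *Jak3* ranked 38 of 20370 genes by unadjusted p (0.00085). DESeq2 gave an adjusted p of 0.0495, just inside its threshold, and 0.0506 when genes at 0 in every library were left out. Neither the labels nor the methods state that libraries of the same replicate number were paired. Their residuals correlated between these fractions (r from 0.195 to 0.323), and the replicate number was also taken as a block. With this block the adjusted p was 0.0901 by edgeR and 8.4e-05 by DESeq2, which then called 9.45% of all genes. When 1 library at a time was left out, the log2 fold change stayed between 1.22 and 1.52, and the adjusted p between 0.158 and 0.882. *Insl3*, on the same strand, overlaps *Jak3* by 1362 bases, but had a mean of 30.7 counts against 4963 counts for *Jak3*.

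The other kinases differed less. *Jak1* was at 444, 399 and 371 CPM in Selp high paHSCs and at 342, 292 and 242 CPM in Selp low paHSCs. These ranges did not overlap, but the gap between the groups was small beside the spread within them. Its log2 fold change was 0.46 (SE 0.26, adjusted p = 0.514 by edgeR). *Jak2*, the kinase of the erythropoietin and growth hormone receptors, was at 38.7, 97.5 and 85.9 CPM against 57.5, 65.5 and 71.3 CPM. The Selp low libraries lay inside the range of the Selp high libraries, with a log2 fold change of 0.19 (SE 0.37). *Tyk2*, which serves interferon and interleukin-12 family receptors, was at 38.3, 52.6 and 52.6 CPM against 32.8, 63.3 and 38.7 CPM, and its log2 fold change was 0.08 (SE 0.32).

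Of the STAT genes, *Stat5a* was at 110, 101 and 136 CPM in Selp high paHSCs and at 50.8, 52.6 and 79.5 CPM in Selp low paHSCs, with no overlap. Its log2 fold change was 0.92 (SE 0.27, adjusted p = 0.338 by edgeR and 0.296 by DESeq2), a fold of 1.89. With the replicate block the adjusted p was 0.115 by edgeR and 0.00903 by DESeq2, still under the minimum fold change for a call. *Stat3*, which carries signals of the interleukin-6 family, was at 218, 249 and 214 CPM against 151, 159 and 191 CPM. It too did not overlap, with a log2 fold change of 0.44 (SE 0.23, adjusted p = 0.489 by edgeR). *Stat5b* followed neither. It was at 43.9, 152 and 68.1 CPM in Selp high paHSCs and at 50.03, 92.9 and 98.1 CPM in Selp low paHSCs, so that the Selp high libraries spanned the Selp low ones (log2 fold change 0.13, SE 0.50).

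**Figure D2:**
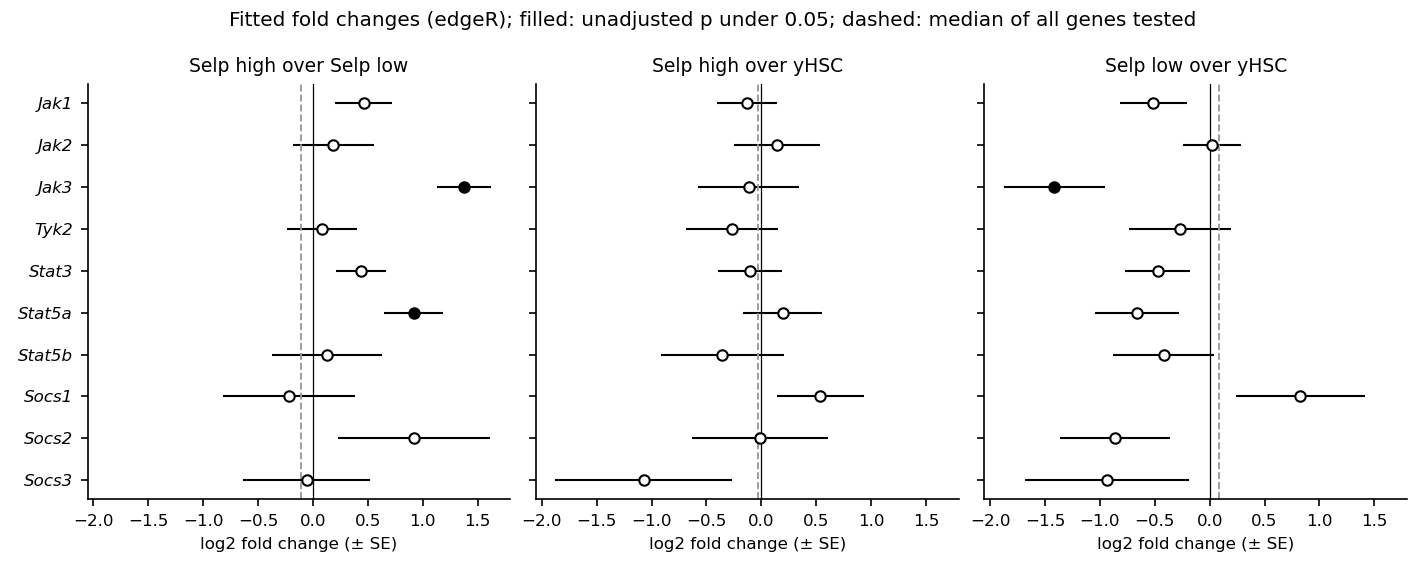
Fitted log2 fold change (horizontal axis, edgeR, bars ± SE) of each of the 10 genes in the 3 comparisons, with filled points at an unadjusted p under 0.05 and a dashed line at the median of all genes tested. *Jak3* is at 1.38 in Selp high over Selp low paHSCs and at -1.42 in Selp low paHSCs over yHSCs, *Stat5a* is at 0.92 in the first of these, and the other points are open.

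HSC markers moved with these genes. Their summed level was higher in every Selp high library than in any Selp low library, by 1.11 in the mean of log2 values. When each member was expressed per 1000 CPM of summed HSC markers, 9 of the 10 genes were lower in Selp high paHSCs in the mean and *Jak3* alone was higher, by 0.26 on the log2 scale. On that scale *Jak3* was at 65.1, 55.8 and 77.8 in Selp high replicates 1, 2 and 3 and at 45.1, 49.1 and 74.8 in Selp low replicates 1, 2 and 3, so the groups overlapped. *Jak1* reversed, with 142 to 171 in Selp high paHSCs and 223 to 296 in Selp low paHSCs. *Stat3* and *Stat5a* also changed sign, to -0.66 and -0.16. The separation of the marker sums rested on 1 of the 10 markers, without which the sums of the fractions overlapped (1060 to 1389 CPM in Selp high and 445 to 1119 CPM in Selp low paHSCs). T and NK cell markers, from cells that are known to express *Jak3*, had sums of 455 to 1142 CPM in Selp low and 150 to 177 CPM in Selp high paHSCs. In Selp low replicate 3, however, *Nkg7* alone gave 619 of 639 CPM, and without *Nkg7* the sums were 20.3 to 851 CPM in Selp low and 59.3 to 131 CPM in Selp high paHSCs, which overlapped. *Klrb1c*, an NK cell receptor gene of the same list, was at 102, 47.9 and 39.2 CPM in Selp high and at 25.7, 14.8 and 9.48 CPM in Selp low paHSCs. Sums of megakaryocyte and platelet markers were 1404 to 7896 CPM in Selp high paHSCs, 173 to 2161 CPM in Selp low paHSCs and 135 to 210 CPM in yHSCs. The sums of the fractions overlapped, but 7 of the 10 markers, *Itga2b* and *Ppbp* among them, were higher in every Selp high library than in any Selp low library. The part of HSC, T and NK cell or megakaryocyte content in these differences was not tested.

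**Figure D3:**
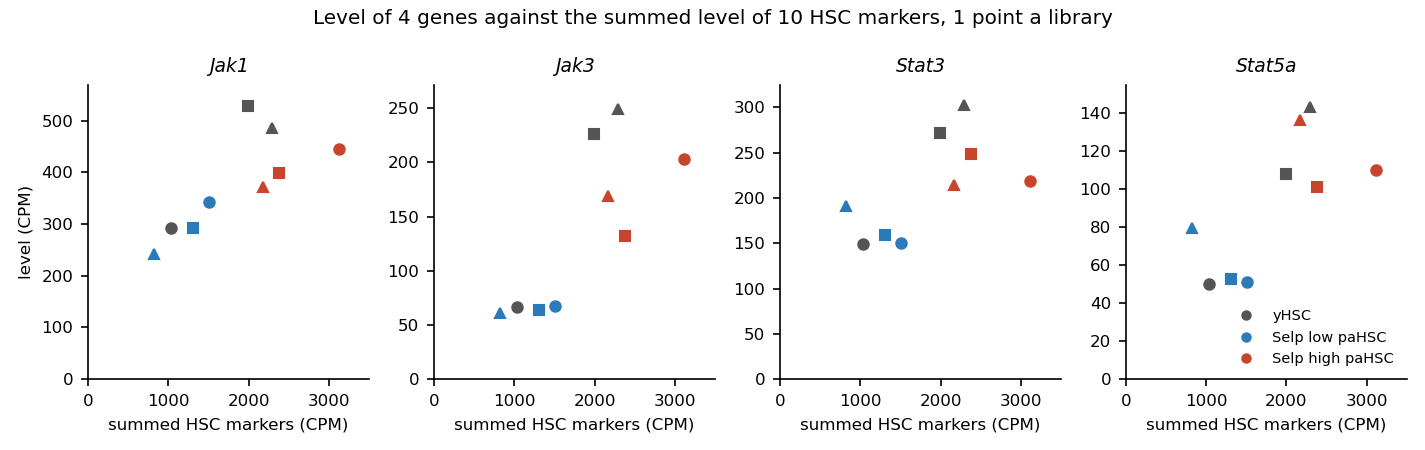
Level in CPM (vertical axes) of *Jak1*, *Jak3*, *Stat3* and *Stat5a* against the summed CPM of 10 HSC markers (horizontal axes), 1 point a library, coloured by group, with the symbols for the replicates as in the plot of levels. The Selp low libraries and yHSC replicate 1 lie at 819 to 1505 CPM of HSC markers and are low for all 4 genes, and the other 5 libraries lie at 1992 CPM or more.

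Between their lowest and highest of the 9 libraries the SOCS genes varied most, 10.1-fold for *Socs3*, 8.42-fold for *Socs2* and 4.82-fold for *Socs1*. Within a group they were not always the most variable. In yHSCs the SD was 23.0% of the mean for *Socs1* and 55.3% for *Jak3*. Each of the SOCS genes overlapped between the paHSC fractions. *Socs1*, a strong inhibitor of interferon signals, was at 16.3, 13.4 and 7.79 CPM in Selp high paHSCs and at 16.4, 22.2 and 4.61 CPM in Selp low paHSCs (log2 fold change -0.22, SE 0.60). *Socs2*, a feedback inhibitor of growth hormone signals, was at 69.7, 25.3 and 12.7 CPM against 25.9, 22.1 and 8.28 CPM. Selp high replicate 1 alone stood above the rest, and the log2 fold change of 0.92 had an SE of 0.69. In both fractions replicate 3 was the lowest for *Socs1* and *Socs2*. *Socs3*, the inhibitor of the interleukin-6 and G-CSF receptors, was at 64.9, 15.4 and 52.4 CPM against 49.7, 23.3 and 64.2 CPM, and replicate 2 was the lowest in both fractions (log2 fold change -0.06, SE 0.58). None of the 3 genes had an adjusted p under 0.622 by edgeR.

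The comparisons with yHSCs asked how pre-aged HSCs differ from young ones, and the yHSC libraries differed among themselves. In yHSC replicates 1, 2 and 3 *Jak3* was at 66.2, 226 and 250 CPM, *Jak1* at 292, 529 and 485 CPM and *Stat5a* at 49.9, 108 and 143 CPM. *Socs3* was at 15.8, 155 and 102 CPM. For these genes replicate 1 was lower than both other yHSC libraries. It was close to the Selp low libraries for *Jak3*, *Jak1* and *Stat5a* and below all of them for *Socs3*, and it was also the yHSC library with the fewest counts and the lowest HSC marker sum. *Jak2* was at 45.3, 67.7 and 85.5 CPM, *Tyk2* at 24.1, 70.2 and 76.2 CPM, *Stat3* at 149, 272 and 302 CPM and *Stat5b* at 48.5, 127 and 161 CPM. *Socs1*, at 9.15, 6.28 and 10.003 CPM, was the exception, with its lowest value in replicate 2, while *Socs2* was at 20.6, 41.4 and 45.8 CPM.

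In Selp low paHSCs over yHSCs, edgeR called 0 of 20437 genes (0%) and none of the members, and DESeq2 called 517 of 17508 genes (2.95%) and none of the members. With the replicate number as a block DESeq2 called 2.72% of all genes and again no member. *Jak3* was the 1 member with an unadjusted p under 0.05, beside 11.3% of all genes. Its log2 fold change was -1.42 (SE 0.46, adjusted p = 0.348 by edgeR and 0.153 by DESeq2), and yHSC replicate 1 overlapped the Selp low libraries. No member was without overlap, against 9.59% of all genes that were higher and 6.76% that were lower. The median of the 10 genes was -0.49, beside 0.08 over all genes tested. Without yHSC replicate 1 the *Jak3* value was -1.88, and 5 members reached an unadjusted p under 0.05, namely *Jak1*, *Jak3*, *Stat3*, *Stat5a* and *Socs3*. Without yHSC replicate 2 or 3 none did. The share of all genes at that p in these fits is not given here, so the 5 members cannot be set against it. Without yHSC replicate 1 the median over all genes tested was 0.24. The smallest adjusted p among the members without yHSC replicate 1 was 0.112 by edgeR, for *Jak3*.

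In Selp high paHSCs over yHSCs, edgeR called 33 of 20017 genes (0.165%) and DESeq2 596 of 21436 (2.78%), with no member among either, and with the replicate number as a block DESeq2 called 3.77% of all genes and no member. No member had an unadjusted p under 0.05 by edgeR or DESeq2, beside 7.59% of all genes by edgeR. None was without overlap, against 8.53% of all genes that were higher and 5.28% that were lower. The median of the 10 genes was -0.11, beside -0.03 over all genes tested. *Jak3* had a log2 fold change of -0.12 (SE 0.46) and *Stat5a* of 0.19 (SE 0.36). The largest value was that of *Socs3*, -1.07 (SE 0.80, adjusted p = 0.919 by edgeR), which became -1.56 without yHSC replicate 1 and -0.38 without yHSC replicate 2. The comparisons of both fractions with yHSCs share the yHSC libraries.

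Ratios of genes within a library do not depend on how libraries are scaled, and 4 were compared between groups, per length, in 12 exact permutation tests. With 3 libraries against 3 the smallest 2-sided p is 0.1. The *Jak3* to *Jak1* ratio was 0.617, 0.449 and 0.615 in Selp high replicates 1, 2 and 3 and 0.268, 0.297 and 0.342 in Selp low replicates 1, 2 and 3. The difference in log2 ratio was 0.88, and the groups did not overlap (exact p = 0.1, adjusted over the 12 tests 0.8). In yHSCs that ratio was 0.306 in replicate 1 and 0.578 and 0.695 in replicates 2 and 3.

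The *Stat5b* to *Stat5a* ratio was 0.515, 1.93 and 0.643 in Selp high replicates 1, 2 and 3, whereas *Stat5b* exceeded *Stat5a* in every Selp low library (1.27, 2.27 and 1.59) and every yHSC library (1.25, 1.52 and 1.45). Selp high replicates 1 and 3 lay under 1 and replicate 2 did not, and the difference of -0.95 in log2 ratio between the fractions had an exact p of 0.3. The *Jak2* to *Jak1* ratio was lowest in Selp high replicate 1 (0.125) and highest in Selp low replicate 3 (0.423), with an exact p of 0.7 between the fractions. The *Socs3* to *Socs2* ratio ran from 2.01 to 25.5 across the 9 libraries. Replicate 3 had the highest value in both paHSC fractions, and the exact p between the fractions was 0.5.

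**Figure D4:**
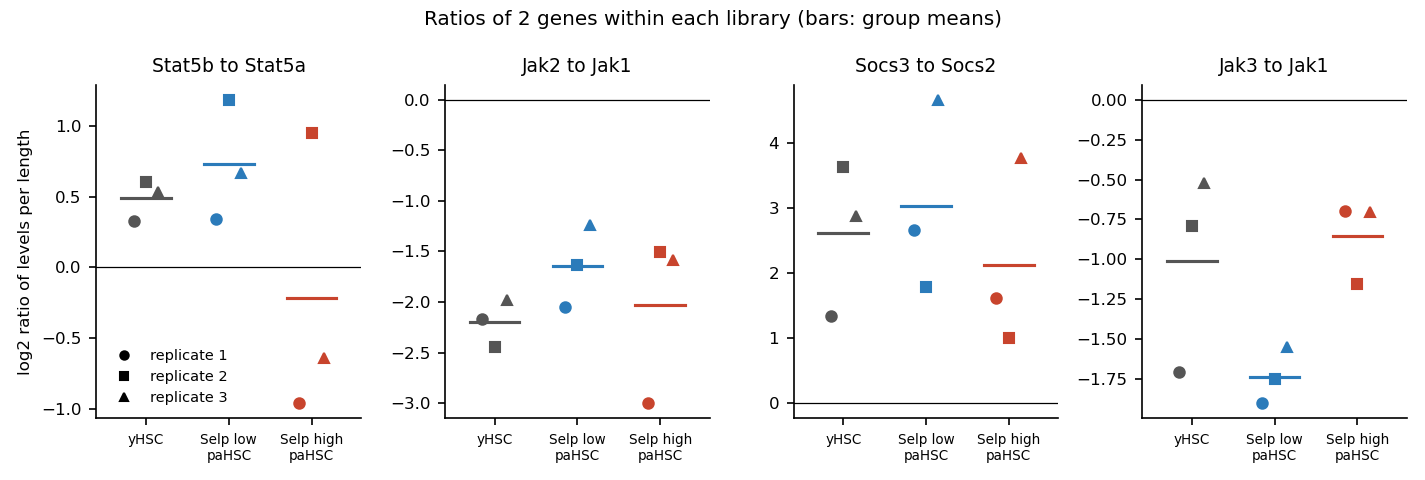
Log2 ratio of the levels per length of 2 genes within each library (vertical axes), by group, with replicates as symbols and group means as bars. The *Jak3* to *Jak1* ratio is higher in all 3 Selp high libraries than in all 3 Selp low libraries, and the *Stat5b* to *Stat5a* ratio is under 0 in Selp high replicates 1 and 3 only.

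The rest of the pathway was described by 6 lists of other STATs, SOCS family genes, inhibitors, receptors, ligands and targets, with 89 genes in all. Of these, 82 passed the filter in the comparison of the paHSC fractions, 80 in that of Selp high paHSCs with yHSCs and 83 in that of Selp low paHSCs with yHSCs. Of them edgeR called 0 in each, and DESeq2 called 2, 6 and 2, beside 2.28%, 2.78% and 2.95% of all genes. Between the paHSC fractions 12 of the 82 had an unadjusted p under 0.05, 8 higher and 4 lower in Selp high paHSCs, which is 14.6% of them beside 12.5% of all genes. The median log2 fold change was -0.01. With the replicate block DESeq2 called 12 of 84 pathway genes (14.3%) between the fractions, beside 2151 of 22765 genes in all (9.45%), and edgeR called none of the pathway genes and 9 of 20370 genes (0.0442%).

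The receptors held 6 of these 12 genes. Of 28 receptor genes, 5 were higher and 1 lower at an unadjusted p under 0.05, beside 12.5% of all genes in either direction. The list's median was 0.03. *Ghr*, the growth hormone receptor, was at 41.1, 22.3 and 30.7 CPM in Selp high paHSCs and at 15.4, 5.27 and 11.1 CPM in Selp low paHSCs (log2 fold change 1.55, SE 0.46). Its adjusted p by DESeq2 was 0.122, and 4.3e-05 with the replicate block. *Il6st*, which encodes gp130, the chain shared by receptors of the interleukin-6 family, was at 41.4, 45.1 and 26.3 CPM against 19.5, 16.9 and 9.10 CPM (log2 fold change 1.30, SE 0.39), and its adjusted p by DESeq2 was 0.18 without and 0.000414 with the block.

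Both genes were higher in each Selp high library than in any Selp low library. Receptor genes at that p that are named because of their values were *Il11ra1* (log2 fold change 1.36, SE 0.52) and *Il27ra* (1.16, SE 0.41), whose receptors signal through gp130, and *Ifngr2* (-0.79, SE 0.32), a chain of the interferon gamma receptor. With the block DESeq2 called *Il11ra1* (adjusted p = 0.00154) and *Il27ra* (0.00754), but not *Ifngr2* (0.11), and by edgeR with the block no receptor was called.

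Among 20 ligand genes 13 passed the filter. *Ctf1*, which encodes the interleukin-6 family cytokine cardiotrophin-1, was at 27.1, 13.95 and 16.5 CPM in Selp high paHSCs and at 10, 5.34 and 8.39 CPM in Selp low paHSCs (log2 fold change 1.27, SE 0.41, adjusted p = 0.338 by edgeR), and DESeq2 with the block called it (adjusted p = 0.00609). *Ifng*, the interferon gamma gene of T and NK cells, was at 9.87 and 7.65 CPM in Selp low replicates 1 and 2 and at 0.0749 CPM in replicate 3, against 0.114 to 0.394 CPM in Selp high paHSCs. Selp low replicates 1 and 2 thus set its log2 fold change of -4.65 (SE 1.495, adjusted p = 0.0074 by DESeq2 and 0.338 by edgeR). The *Ifng* value in Selp low replicate 3 lay under the limit of 3 counts, and the lowest Selp high value lay near it. *Il10* was at 0.419 to 1.19 CPM in Selp high paHSCs and at 1.61 to 3.41 CPM in Selp low paHSCs, with a log2 fold change of -1.80 (SE 0.68). Summed B cell markers were 5676 and 8030 CPM in Selp low replicates 1 and 2, beside 64.2 to 548 CPM in the other 7 libraries, and their part in the ligand values was not tested.

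The 24 STAT target genes had a median of -0.29, lower than that of all genes tested, and 8 of them were positive. *Bcl2l1*, which encodes the survival protein Bcl-xL, was at 64.2, 118 and 70.7 CPM in Selp high paHSCs and at 30.2, 30.5 and 56.2 CPM in Selp low paHSCs (log2 fold change 1.11, SE 0.37, adjusted p = 0.338 by edgeR), and DESeq2 with the block called it (adjusted p = 0.0322). *Mcl1*, another survival gene, went the other way, with 254, 242 and 357 CPM against 429, 467 and 446 CPM (log2 fold change -0.66, SE 0.27). *Junb* was at 1113, 282 and 522 CPM against 2566, 1415 and 738 CPM (log2 fold change -1.31, SE 0.65). The groups overlapped, but *Junb* was lower in the Selp high library of each replicate number, and its adjusted p with the block was 0.00909 by DESeq2 and 0.201 by edgeR. Early response genes, which rise when cells are handled, had sums of 2732 to 14733 CPM in Selp high and 7800 to 22731 CPM in Selp low paHSCs, and their part in the *Junb* value was not tested. *Cish* was at 44.4, 42.5 and 41.6 CPM against 36.2, 21.9 and 45.3 CPM.

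The 4 other STAT genes had a median of 0.31. *Stat4*, a mediator of interleukin-12 signals, was at 69.3, 40.5 and 48.0 CPM in Selp high paHSCs and at 40.7, 22.9 and 25.8 CPM in Selp low paHSCs (log2 fold change 0.81, SE 0.34, adjusted p = 0.393 by edgeR). *Stat2* (0.28, SE 0.33), which carries interferon signals, differed less. Of the 5 other SOCS family genes *Socs5* was at 17.1, 31.4 and 18.1 CPM against 13.97, 15.1 and 11.1 CPM (log2 fold change 0.72, SE 0.35), *Socs4* had a log2 fold change of -0.40 (SE 0.26) and *Socs6* of 0.35 (SE 0.28). Among 11 other inhibitors none had an unadjusted p under 0.05. The smallest p values belonged to the phosphatase genes *Ptprc* (-0.70, SE 0.37), *Ptpn6* (-0.59, SE 0.34) and *Ptpn2* (-0.38, SE 0.23).

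**Figure D5:**
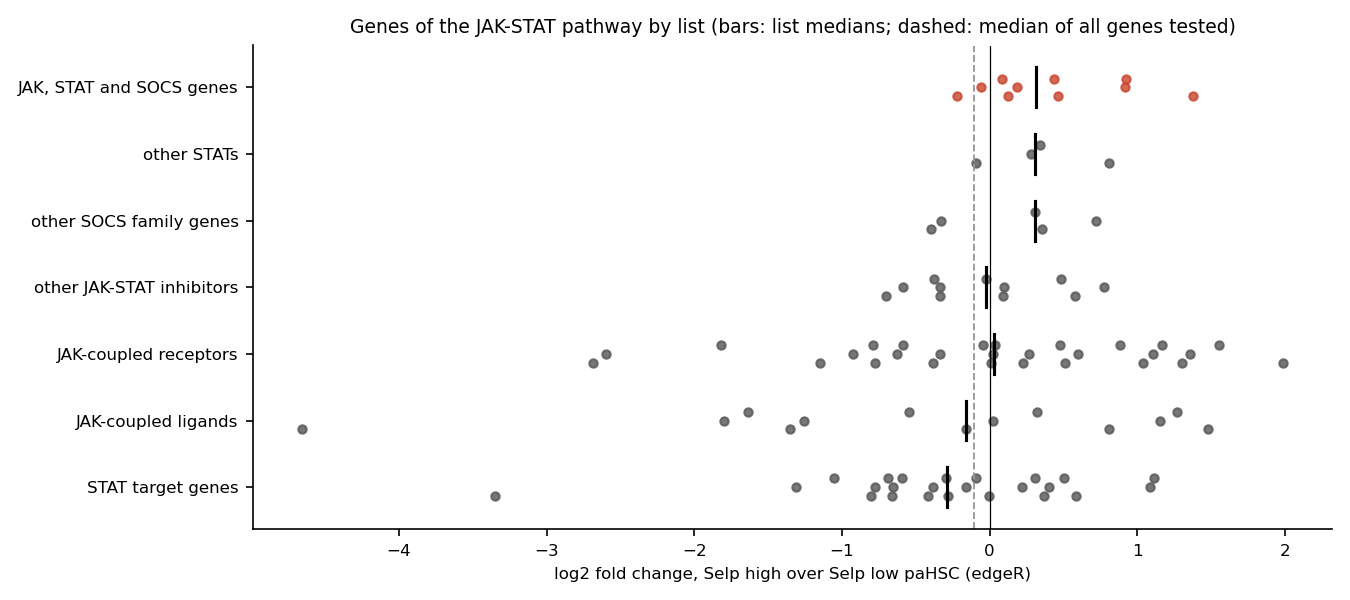
Log2 fold change in Selp high over Selp low paHSCs (horizontal axis, edgeR) of the 10 JAK, STAT and SOCS genes and of the tested genes of 6 pathway lists, 1 point a gene, with bars at list medians and a dashed line at the median of all genes tested. The receptors have a median of 0.03, and the STAT targets have the lowest median, -0.29.

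Against yHSCs, the pathway genes that DESeq2 called are named because of their values. Selp high paHSCs had 5 that were higher, *Gadd45g*, *Ctf1*, *Ghr*, *Ccnd1* and *Bcl2l1*, and 1 that was lower, *Lif*. *Gadd45g*, a growth arrest gene, was at 20.6, 8.85 and 14.02 CPM in yHSCs, at 103, 49.2 and 66.5 CPM in the Selp high fraction and at 55.6, 53.9 and 55.2 CPM in the Selp low fraction. It was higher in every paHSC library than in any yHSC library, with log2 fold changes over yHSCs of 2.29 (SE 0.43, adjusted p = 0.143 by edgeR and 0.000306 by DESeq2) in Selp high and 1.95 (SE 0.36, adjusted p = 0.332 by edgeR and 0.00899 by DESeq2) in Selp low paHSCs. *Il15*, the other gene called in Selp low paHSCs, was at 27.7, 15.0 and 28.6 CPM there, at 33.8, 36.6 and 19.2 CPM in Selp high paHSCs and at 64.9, 55.2 and 78.5 CPM in yHSCs. Interleukin-15 signals through JAK1 and JAK3, and its log2 fold change in Selp low paHSCs over yHSCs was -1.44 (SE 0.31, adjusted p = 0.332 by edgeR and 0.0377 by DESeq2).

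Across the 9 libraries, the members whose log2 levels were most alike were *Jak1* and *Jak3* (Pearson r = 0.925), *Stat3* and *Stat5a* (r = 0.904) and *Jak3* and *Stat5a* (r = 0.891). *Jak2* was most like *Stat5b* (r = 0.810), and *Stat5a* and *Stat5b* were less alike (r = 0.456). *Socs1* had its highest r, 0.462, with *Socs2*. These are descriptions over 9 libraries that share depth, scaling and cell content. The r with the summed HSC markers was 0.857 for *Jak1*, 0.852 for *Jak3*, 0.726 for *Socs2*, 0.695 for *Stat5a* and 0.651 for *Stat3*, but 0.0955 for *Jak2* and 0.118 for *Stat5b*. With the summed megakaryocyte and platelet markers the r was 0.0066 for *Jak3* and 0.309 for *Stat5a*. Among 14341 protein-coding genes that passed the filter in all comparisons, the gene most like each member was *Krba1* for *Jak1* (r = 0.975), *Gpam* for *Jak2* (0.978), *Xxylt1* for *Jak3* (0.992) and *Usp36* for *Tyk2* (0.977). It was *Ncdn* for *Stat3* (0.984), *Ccar2* for *Stat5a* (0.990) and *Glce* for *Stat5b* (0.979). For the SOCS genes it was *Rab3a* for *Socs1* (0.957), *Rbm12b1* for *Socs2* (0.980) and *Surf6* for *Socs3* (0.949). Each of these genes was picked as the highest r among all candidates, a choice that by itself favours high values.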

How the data were processed

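Reads were trimmed with fastp, aligned with HISAT2 (2.2.1) and assigned to genes with featureCounts (2.0.6), and the submitters' processing notes name the build mm39 (GRCm39). The authors deposited raw read counts per gene, without normalization, beside a gene length, and the table had 0 other columns of per-sample values. How strand and multiply mapping reads were handled in counting is not given in the sources used here. Libraries of a group are biological replicates in the study's words, without saying whether each came from a separate mouse or from pooled mice.

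Counts were analysed in R 4.3.3 with edgeR 4.0.16 (TMM, filterByExpr, quasi-likelihood test with the legacy setting, each pair of groups fitted alone, Benjamini-Hochberg adjustment over all genes tested). A call needed an adjusted p no higher than 0.05 and a log2 fold change of at least 1 in size. The SE of a log2 fold change was its size divided by the square root of the quasi-likelihood F statistic. Alternatives were DESeq2 1.42.0, limma 3.58.1 (voom with quality weights), RLE and upper-quartile factors, no filter or a mean of 10 counts, the newer quasi-likelihood setting, 1 fit of all 9 libraries, no fold change minimum, a replicate block, and each library left out. Ratios used a pseudocount of 1 count, with 0.5 and 5 as alternatives, and correlations log2 CPM with a prior count of 2. DESeq2 without genes at 0 in every library, levels per summed HSC markers, and marker sums without *Nkg7* or 1 HSC marker, were added after the data were seen. Residuals of the same replicate number correlated at 0.195, 0.318 and 0.323 between the paHSC fractions, all above the 0.1 taken as pairing, and at -0.40 to 0.0877 with yHSCs. Unlike numbers reached 0.439 (Selp high replicate 1 with yHSC replicate 2), so a value above 0.1 does not by itself show pairing. The main edgeR fits and the DESeq2 fits without a block were tested on simulated data. The replicate block, voom and the other alternative settings were not. Python 3.11.15 with matplotlib 3.10.9 drew the figures, and coding sequences were aligned with Biopython 1.88.

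The members and lists were chosen with earlier results of these data known. All 10 members were named, and of each pathway list the genes called by edgeR or otherwise at most 3 with the smallest unadjusted p in Selp high over Selp low paHSCs. Some genes of these lists that the rule would name are not reported here. For each member the most correlated protein-coding gene was also named. Amino acid sequences were not used here.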

Additional observations from a re-analysis of the deposited data

How the results depend on the processing

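No member was called by edgeR or voom under any alternative run. Between the paHSC fractions DESeq2 called 1 member, *Jak3*, both without and with the replicate block, and none without genes at 0 in every library. Across 17 alternatives, *Jak1*, *Jak3*, *Stat3* and *Stat5a* stayed higher in Selp high than Selp low paHSCs in CPM, and *Jak3* stayed lower in Selp low paHSCs than yHSCs. Per 1000 CPM of HSC markers, added after the data were seen, *Jak3* alone kept its sign between the fractions among the positive genes, and the log2 differences turned to -0.63 (*Jak1*), -1.02 (*Jak2*), -0.97 (*Tyk2*), -0.66 (*Stat3*), -0.16 (*Stat5a*), -1.11 (*Stat5b*) and -0.36 (*Socs2*). On the same scale Selp high paHSCs over yHSCs turned to -0.49 (*Jak2*), -0.26 (*Stat5a*) and -0.069 (*Socs1*), and Selp low paHSCs over yHSCs to 0.29 (*Tyk2*), 0.047 (*Stat3*) and 0.14 (*Stat5b*). These turns follow from the marker sums, whose mean log2 differed by 1.11, 0.59 and -0.52 in the 3 comparisons.

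Pathway genes called numbered 0 by edgeR in each comparison. Between the fractions they numbered 1 with no filter on low counts, 2 by DESeq2, 12 by DESeq2 with the replicate block and 2 by DESeq2 without genes at 0. Over all genes these fits called 193 of 43523, 589 of 25807, 2151 of 22765 and 582 of 26368. In Selp high paHSCs over yHSCs they numbered 3 with no filter, 6 by DESeq2, 3 by voom, 6 by DESeq2 with the block and 6 without genes at 0. The same fits called 472 of 41339, 596 of 21436, 275 of 20017, 641 of 16981 and 605 of 20242 genes in all. In Selp low paHSCs over yHSCs they numbered 1 with no filter, 2 by DESeq2, 2 by voom, 4 by DESeq2 with the block and 2 without genes at 0. All genes called in these fits numbered 365 of 43683, 517 of 17508, 431 of 20437, 417 of 15341 and 519 of 17942. With each library left out 0 to 1 pathway genes were called, the 1 being *Il7r* without Selp low replicate 3, where 118 of 22116 genes were called. The cause was not tested.

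Some differences changed sign. Between the fractions they were *Socs3* (0.0067 with no filter, 0.0022 by voom) and *Stat5b* (-0.014 by edgeR and -0.018 by DESeq2 with the block). *Socs2* also turned there, from 0.92 (SE 0.69) in the main fit to -0.20 by voom. In Selp high paHSCs over yHSCs they were *Socs2* (0.014 with upper-quartile factors) and *Jak3* (0.032 by edgeR and 0.022 by DESeq2 with the block). In Selp low paHSCs over yHSCs *Jak2* turned to -0.081 with no filter, -0.0076 by DESeq2 with or without genes at 0, -0.19 by voom and -0.031 in 1 fit of all libraries. With each library left out, ranges that crossed 0 between the fractions were -0.063 to 0.50 (*Jak2*), -0.098 to 0.44 (*Tyk2*), -0.53 to 0.45 (*Stat5b*), -0.63 to 0.25 (*Socs1*) and -0.44 to 0.35 (*Socs3*). Those in Selp high paHSCs over yHSCs were -0.33 to 0.072 (*Jak1*), -0.13 to 0.44 (*Jak2*), -0.50 to 0.13 (*Jak3*), -0.34 to 0.039 (*Stat3*), -0.12 to 0.48 (*Stat5a*) and -0.94 to 0.41 (*Socs2*), and that of *Jak2* in Selp low paHSCs over yHSCs was -0.23 to 0.24. The cause was not tested.

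With yHSCs the replicate numbers did not pair the libraries, and under the block edgeR called no member there. For the ratios, differences within the same replicate number between the fractions gave the same means, 0.88 for *Jak3* to *Jak1* (sign-flip p = 0.25, the smallest that 3 pairs allow, by an exact permutation test). No ratio moved by more than its spread with a pseudocount of 0.5 or 5 or with a library left out. With 1 library left out of 3, adjusted p-values rest on 5 libraries.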
